A study of Mus musculus with 24 samples.

Results

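MIN6 is a mouse insulinoma line that makes and secretes insulin and stands in for the pancreatic beta cell in culture. The comparison described here sets 4 libraries of MIN6 cells labelled as carrying an EIF2A plasmid and given 1 µM thapsigargin for 3 h against 4 libraries of EIF2A-labelled cells given DMSO vehicle, together 8 of the 24 polyadenylated-RNA libraries of the study. The members were chosen by their labels alone, and each 3 h library was paired with the vehicle library whose column in the deposited count table ends in the same suffix, 2, 3, 4 or 5. The plasmid of the EIF2A group encodes EIF2A joined to green fluorescent protein (GFP). The other group, used here only for contrast, carried GFP alone and has 4 libraries at 3 h and 4 in vehicle. Thapsigargin was the agent in every treated group, and the medium and vehicle were shared by all of them. No source used here gives the species or extent of the EIF2A insert, or the share of cells that took up a plasmid. The vehicle libraries are labelled 0 h, so 3 h of handling and thapsigargin cannot be told apart. Whether the replicates were separate cultures is not stated, so p-values measure the spread between these libraries, which may be technical.

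Thapsigargin blocks the calcium pump that fills the endoplasmic reticulum (ER), and folding of secreted proteins fails when ER calcium is lost. Cells answer through sensors in the ER membrane: PERK phosphorylates the initiation factor eIF2, which slows translation but favours the transcription factor ATF4 (the integrated stress response, ISR). In parallel, IRE1 splices the Xbp1 mRNA and ATF6 is cut to release a transcription factor (the unfolded protein response). Beta cells are known for a heavy load of proinsulin in the ER. EIF2A is a separate initiation factor that can bring initiator tRNA to the ribosome and is not a subunit of eIF2.

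The reads counted in genes came to 15.9 to 16.9 M per library at 3 h and 10.5 to 18.1 M in vehicle. Insulin and islet amyloid mRNAs were among the most abundant in all 8 libraries, as the label of a beta cell line requires, with Ins2 at 27974 to 33830 CPM (counts per 1000000 counted reads) at 3 h and 51369 to 63698 CPM in vehicle. Over all 16 EIF2A and GFP libraries at these times, Eif2a, the gene on the plasmid, followed the labels in suffixes 3 to 5 and went against them in suffix 2. In suffixes 3, 4 and 5 the EIF2A-labelled libraries had 209, 194 and 164 CPM of Eif2a at 3 h and 141, 142 and 134 CPM in vehicle, against 102, 99.5 and 91.1 CPM at 3 h and 79.0, 77.8 and 78.6 CPM in vehicle in the GFP-labelled libraries. In suffix 2 the libraries labelled EIF2A had 104 CPM at 3 h and 80.2 CPM in vehicle, and those labelled GFP had 358 and 269 CPM. The suffix 2 libraries also stood apart from others of their group over the whole table: their counts differed from the other suffixes' by 78.2 to 117 times the sampling variance per gene (chi-square per degree of freedom). Suffixes 3 to 5 differed among themselves by 1.65 to 20.03 times, the lowest being suffixes 3 and 4 at 3 h. Many results below are therefore also given for suffixes 3 to 5 alone, and counts that are not repeated for these suffixes can differ there. A gene is called changed, and is said to have risen or fallen, when the Benjamini-Hochberg adjusted p of edgeR's quasi-likelihood test, with the pair as a block, was under 0.05 over all genes tested, and log2 fold changes (3 h over vehicle) are given ± their approximate standard error.

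Thapsigargin at 3 h was accompanied by changes in both directions across the transcriptome of EIF2A-labelled cells. Of 12940 genes tested, 4032 rose (31.2%) and 4060 fell (31.4%). Without the pairing the calls were fewer, 2090 genes higher (16.2%) and 1720 lower (13.3%), and counts given below without the pairing stand against those shares. Called changes of at least 2-fold were fewer, 764 in all (5.90%), and leaned upwards, with 518 genes higher and 246 lower. The levels of the 4 libraries at 3 h and the 4 in vehicle did not overlap for 3781 genes (29.2%). In suffixes 3 to 5 alone, 4372 of 12922 genes rose (33.8%) and 4160 fell (32.2%). Of the genes called over all pairs, 3927 of the 4032 that rose (97.4%) and 3846 of the 4060 that fell (94.7%) held their call and direction without suffix 2, and none was called the other way. A further 411 and 307 genes were called up and down only in suffixes 3 to 5. Of the changes of 2-fold or more, 514 of 518 rises and 235 of 246 falls held. Scaling by library totals in place of trimmed means moved the median log2 fold change of all genes to 0.15, and the calls then split into 5392 higher and 2712 lower. Under that scaling rises outnumber falls among ER chaperones (13 and 9), ER-associated degradation (10 and 9), vesicle traffic (13 and 7), glucose sensing (7 and 3), apoptosis (9 and 6), heat shock (8 and 3) and mitotic genes (12 and 5), the reverse of the order given for them below. In bulk RNA, fewer cells of a kind and less RNA per cell cannot be told apart.

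**Figure D1:**
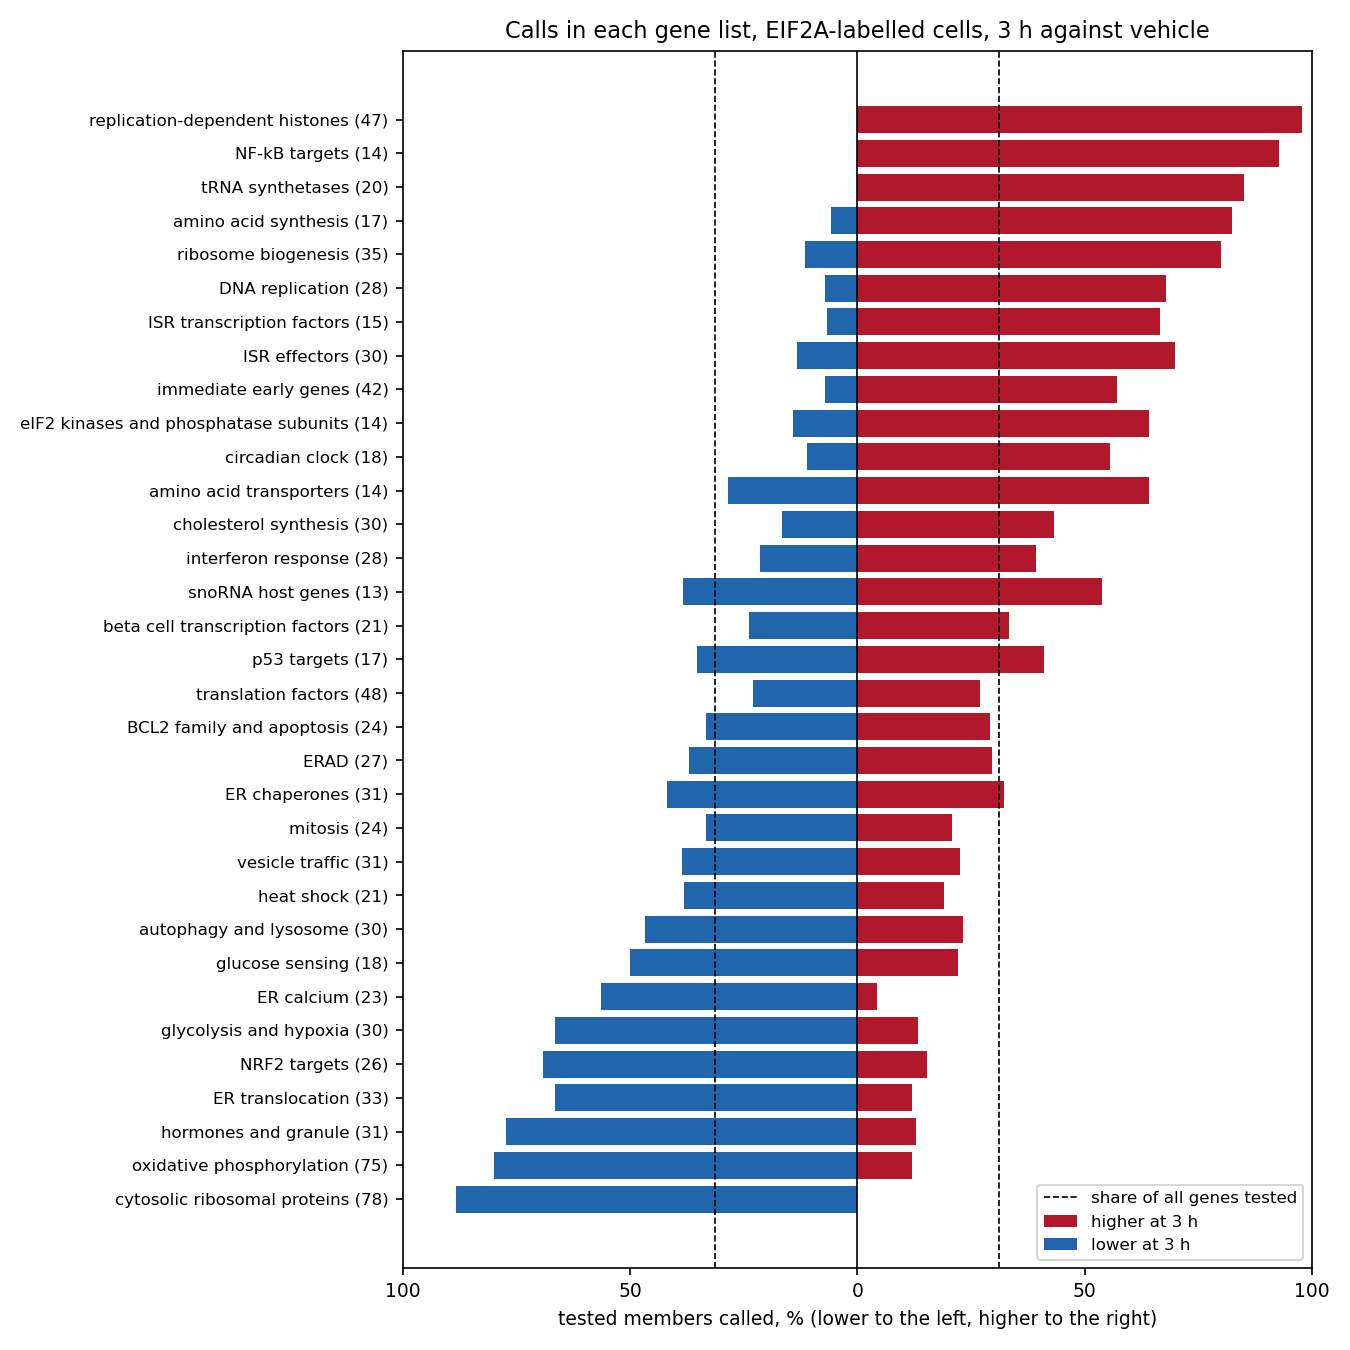
Percentage of the tested members of each gene list that rose (red, to the right) or fell (blue, to the left) at 3 h in EIF2A-labelled cells, with the number tested in parentheses; dashed lines mark 31.2% and 31.4%, the shares of all tested genes that rose and fell. Histone genes, NF-kB genes and tRNA synthetases lie at the top, and ribosomal proteins, oxidative phosphorylation and hormone and granule genes at the bottom.

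The transcription factors of the ISR rose, led by Atf3. Of 15 tested, 10 rose and 1 fell, with a median log2 fold change of 0.64 beside -0.01 over all genes tested, and all 11 calls held in suffixes 3 to 5. Atf3, an ATF family repressor and activator induced by ATF4, had 114, 173, 181 and 185 CPM at 3 h (suffixes 2 to 5) and 11.2, 15.6, 14.0 and 16.2 CPM in vehicle, a rise of 11.3-fold (log2 3.50 ± 0.08, adjusted p = 5.09e-11). Ddit3, which encodes the pro-death factor CHOP, had 265, 334, 346 and 397 CPM at 3 h and 47.0, 118, 132 and 116 CPM in vehicle (1.78 ± 0.16, adjusted p = 2.64e-05). The groups did not overlap for either gene. For Ddit3, suffix 2 had the lowest level in vehicle and the largest change. Atf4 itself, controlled largely at translation, had 1231, 859, 845 and 915 CPM at 3 h and 538, 652, 645 and 611 CPM in vehicle (0.64 ± 0.11). The C/EBP family partners Cebpb (1.65 ± 0.14) and Cebpg (1.27 ± 0.07) rose, as did Jdp2, a bZIP repressor that pairs with AP-1 proteins (1.87 ± 0.10). Xbp1, whose mRNA is the substrate of IRE1, had 396, 311, 307 and 319 CPM at 3 h and 269, 185, 182 and 207 CPM in vehicle (0.67 ± 0.06). Gene counts do not separate its spliced from its unspliced form.

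Most genes downstream of ATF4 and CHOP rose. Of 30 effectors tested, 21 rose (70.0%, against 31.2% of all genes) and 4 fell, with a median of 0.83. Of these, 19 rises and all 4 falls held in suffixes 3 to 5, and 13 rises and 3 falls passed without the pairing. Chac1, an enzyme that breaks down glutathione, had 415, 470, 474 and 566 CPM at 3 h and 49.5, 76.6, 77.5 and 86.4 CPM in vehicle (2.75 ± 0.08, adjusted p = 6e-10). Trib3, a pseudokinase that restrains AKT and feeds back on ATF4, had 242, 318, 337 and 382 CPM at 3 h and 25.8, 49.6, 57.8 and 53.8 CPM in vehicle (2.81 ± 0.10). All 4 treated libraries lay above all 4 vehicle libraries for both genes, and suffix 2 was the lowest library of its group. Sesn2, a leucine sensor that inhibits mTORC1, rose by 1.84 ± 0.06, with pair changes between 1.77 and 1.88 on the log2(CPM + 1) scale. Ppp1r15a (GADD34), which recruits the phosphatase that removes the phosphate from eIF2, rose by 1.86 ± 0.07, and the eIF2B subunit genes Eif2b3 (0.70 ± 0.09) and Eif2b4 (0.67 ± 0.08) rose by less. Ppp1r15b, the constitutive partner of that phosphatase, rose by 0.40 ± 0.06. Eif2ak2 (PKR), the eIF2 kinase activated by double-stranded RNA, fell by 0.86 ± 0.10. Of the 14 genes of eIF2 kinases, eIF2, eIF2B and phosphatase subunits, 9 rose and 2 fell, or 4 and 1 without the pairing. Eif2a, which is not an eIF2 subunit, rose by 0.42 ± 0.06 over its own vehicle libraries (adjusted p = 0.000106), but not without the pairing (adjusted p = 0.212).

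The promoters of 6 of these genes are shown because they carry matches to elements that ATF4, or ATF6 with NF-Y, are known to bind. The windows run from 250 bases before to 50 after the start of the gene (RefSeq, GRCm38.p6) and read 5′ to 3′ on the gene's strand. Of the 24 genes that were fixed or that rose most, 15 had a window and 6 had a match. Capitals mark the C/EBP-ATF response element (TGATGNAAN on either strand) in every window except that of Hspa5, where they mark the ER stress response element (CCAAT and CCACG 9 bases apart). In Herpud1 the second run in capitals is ER stress response element II (ATTGG and CCACG 1 base apart).

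Atf3 (chr1:191183284-191183583, minus strand): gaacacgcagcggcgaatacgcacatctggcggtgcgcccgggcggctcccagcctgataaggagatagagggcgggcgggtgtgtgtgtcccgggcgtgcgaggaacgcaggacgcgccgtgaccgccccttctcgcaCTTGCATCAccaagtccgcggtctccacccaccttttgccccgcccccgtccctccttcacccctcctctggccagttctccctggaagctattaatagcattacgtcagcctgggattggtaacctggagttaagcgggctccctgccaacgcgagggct
Chac1 (chr2:119350992-119351291, plus strand): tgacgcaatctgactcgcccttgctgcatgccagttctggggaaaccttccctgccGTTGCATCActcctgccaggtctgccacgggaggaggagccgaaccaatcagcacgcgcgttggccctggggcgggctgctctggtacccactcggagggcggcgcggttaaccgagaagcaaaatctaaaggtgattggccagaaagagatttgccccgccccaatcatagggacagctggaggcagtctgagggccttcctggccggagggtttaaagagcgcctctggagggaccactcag
Trib3 (chr2:152344011-152344310, minus strand): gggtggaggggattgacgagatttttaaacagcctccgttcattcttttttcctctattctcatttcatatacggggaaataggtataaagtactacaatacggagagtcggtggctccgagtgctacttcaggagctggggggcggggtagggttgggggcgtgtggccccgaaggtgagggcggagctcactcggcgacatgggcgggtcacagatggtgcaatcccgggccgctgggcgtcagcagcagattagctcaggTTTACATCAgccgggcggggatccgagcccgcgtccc
Hspa5 (chr2:34771840-34772139, plus strand): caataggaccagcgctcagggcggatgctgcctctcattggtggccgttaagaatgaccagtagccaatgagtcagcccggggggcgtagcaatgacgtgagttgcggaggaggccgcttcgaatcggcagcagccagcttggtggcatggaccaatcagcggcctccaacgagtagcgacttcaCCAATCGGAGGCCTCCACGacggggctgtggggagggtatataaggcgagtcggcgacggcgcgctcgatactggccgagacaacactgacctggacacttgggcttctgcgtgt
Herpud1 (chr8:94386179-94386478, plus strand): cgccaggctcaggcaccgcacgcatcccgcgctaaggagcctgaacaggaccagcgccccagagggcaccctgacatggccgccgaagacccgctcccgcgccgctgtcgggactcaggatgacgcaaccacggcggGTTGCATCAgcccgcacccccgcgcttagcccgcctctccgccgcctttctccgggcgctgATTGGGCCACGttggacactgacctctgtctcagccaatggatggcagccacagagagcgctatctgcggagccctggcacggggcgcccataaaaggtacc
Slc7a11 (chr3:50443564-50443863, minus strand): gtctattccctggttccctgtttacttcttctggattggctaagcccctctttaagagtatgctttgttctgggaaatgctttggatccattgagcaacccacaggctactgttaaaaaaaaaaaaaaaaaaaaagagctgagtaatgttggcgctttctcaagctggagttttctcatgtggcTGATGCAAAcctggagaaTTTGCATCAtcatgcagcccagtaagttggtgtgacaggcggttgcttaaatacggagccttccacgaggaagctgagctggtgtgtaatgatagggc

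The C/EBP-ATF element lay in 30 of 364 genes that rose at least 2-fold and have a window (8.24%), in 4 of 169 that fell at least 2-fold (2.37%), in 263 of 9889 tested genes (2.66%) and in 3.95% of all 32851 windows. ER stress response elements were rare, with the first form in 39 windows (0.119%) and the second in 12 (0.037%). TGACGTGG, an element of XBP1 and ATF6 targets, and TGACGTCA, the cAMP response element, were searched on both strands too. They lay in 0.676% and 1.79% of windows, and in none of the 6 shown. TGACGTCA lay in 22 of the 364 genes that rose (6.04%), 4 of the 169 that fell (2.37%) and 378 of 9889 tested genes (3.82%). For TGACGTGG the shares were 0.824%, 0% and 1.01%. A higher share among rises was thus not particular to the C/EBP-ATF element. The C/EBP-ATF and ER stress elements do not overlap in the windows shown. Atf3, Chac1, Trib3 and Herpud1 each have 1 match to the C/EBP-ATF element, and Slc7a11 has 2. A match describes these letters and does not show that a factor bound there.

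**Figure D2:**
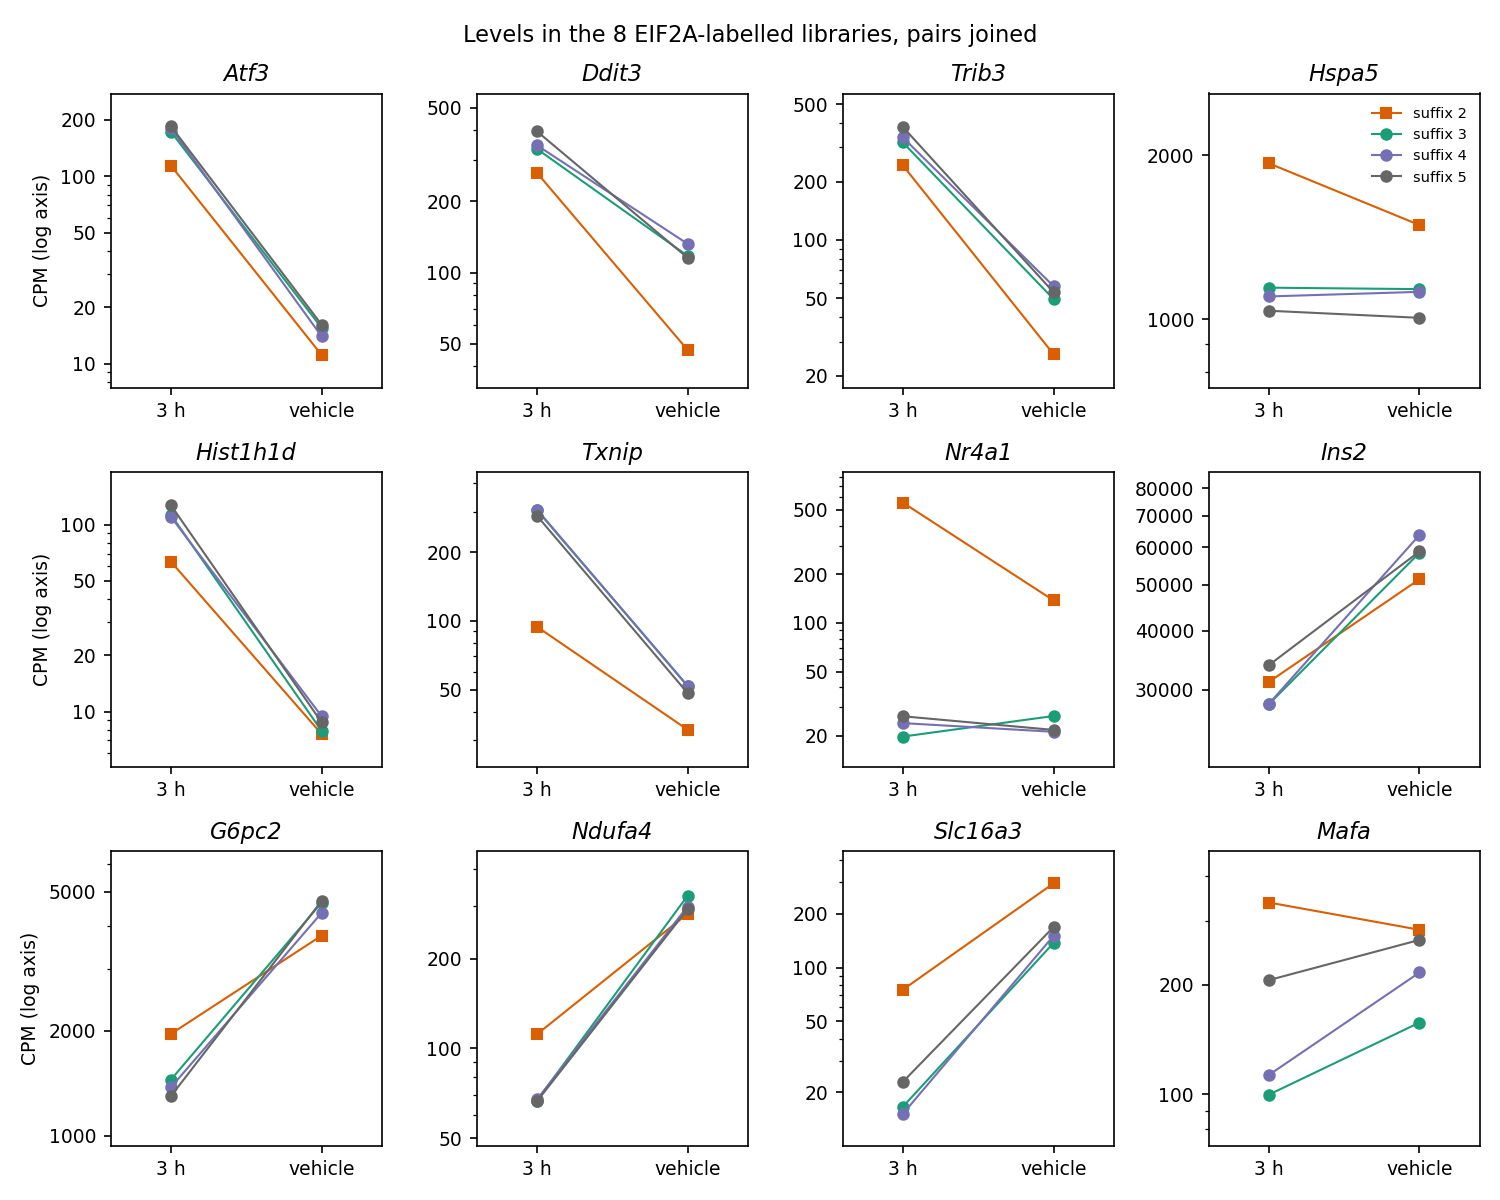
Normalised counts (CPM, log axis) of 12 genes in the 4 EIF2A-labelled libraries at 3 h (left) and the 4 in vehicle (right); lines join pairs with the same suffix and squares mark suffix 2. All pairs slope the same way for Atf3, Ddit3, Trib3, Hist1h1d, Txnip, Ins2, G6pc2, Ndufa4 and Slc16a3, whereas the pairs differ in direction for Nr4a1, Mafa and Hspa5.

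Genes that supply amino acids to translation rose together. Of 20 cytosolic tRNA synthetase genes, 17 rose (85.0%) and none fell, with a median of 0.68, and the 17 calls held in suffixes 3 to 5 and without the pairing. The threonine enzyme gene Tars averaged 241 ± 7.55 CPM at 3 h and 113 ± 3.07 CPM in vehicle (SD, n = 4 each; 1.09 ± 0.06), and Cars (1.17 ± 0.07), Iars (1.10 ± 0.07), Aars (0.99 ± 0.07) and Nars (0.92 ± 0.06) rose by similar amounts. Of 17 genes of amino acid and one-carbon synthesis, 14 rose and 1 fell (median 0.72). These included Gpt2, the mitochondrial alanine transaminase (1.54 ± 0.07), Aldh1l2 (1.42 ± 0.11), Shmt2 (1.20 ± 0.09) and Mthfd2 (0.87 ± 0.06) of the mitochondrial folate cycle. Aldh18a1, the first enzyme of proline synthesis, rose by 1.16 ± 0.07. Shmt2 and Aldh1l2 changed less in suffix 2 than in the other pairs (difference -0.54, adjusted p = 0.00729, and -0.68, adjusted p = 0.009).

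Amino acid transporters moved in both directions. Of 14 tested, 9 rose and 4 fell (median 0.65), and every call held in suffixes 3 to 5. Slc7a11, the cystine-glutamate exchanger, had 50.5, 31.4, 31.6 and 24.8 CPM at 3 h and 7.53, 5.38, 3.44 and 4.13 CPM in vehicle (2.75 ± 0.11, adjusted p = 6.58e-09), and its partner Slc3a2, the shared heavy chain, rose by 1.90 ± 0.08. Slc1a4, a carrier of alanine, serine and cysteine (1.37 ± 0.08), and Slc7a1, a carrier of arginine and lysine (0.99 ± 0.06), also rose. Slc6a6, the taurine carrier, fell by 0.86 ± 0.06, and all 4 of its levels at 3 h lay below those in vehicle.

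The ER folding machinery did not move as a block at 3 h. Hspa5 (BiP), the main ER chaperone and a classical ATF6 target, had 1933, 1143, 1102 and 1037 CPM at 3 h and 1489, 1136, 1123 and 1006 CPM in vehicle, a change of 0.10 ± 0.08 (adjusted p = 0.265). Its groups overlapped, and the pair changes were 0.38 in suffix 2 and between -0.03 and 0.04 in suffixes 3 to 5. With scaling by library totals it was called, at 0.26 (adjusted p = 0.00193). Of 31 ER chaperones and folding enzymes, 10 rose and 13 fell (median -0.09), close to the shares of all genes, and 4 rose and 4 fell without the pairing. The prolyl isomerase gene Ppib (-0.61 ± 0.06) and the disulfide isomerase relatives Txndc5 (-0.73 ± 0.08), Txndc11 (-0.60 ± 0.10) and Txndc12 (-0.49 ± 0.06) fell, and Fkbp7, another isomerase with few counts (4.32 CPM at 3 h and 1.36 CPM in vehicle), rose by 1.67 ± 0.24. Of 27 genes of ER-associated degradation, 8 rose and 10 fell (median -0.09), or 2 and 4 without the pairing and 8 and 13 in suffixes 3 to 5 alone. Herpud1, which assembles the degradation complex, had 448, 282, 290 and 303 CPM at 3 h and 118, 126, 135 and 126 CPM in vehicle (1.37 ± 0.11), and suffix 2 changed more than the other pairs (difference 0.76, adjusted p = 0.000897). Vimp, a membrane anchor of that complex, rose by 0.42 ± 0.07. Edem1, a mannosidase-like lectin induced by XBP1 in other settings (-0.79 ± 0.07), the ubiquitin ligase gene Rnf5 (-0.86 ± 0.07) and the Hsp70 relative Hspa13 (-0.52 ± 0.08) fell.

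Most genes of protein entry into the ER fell. Of 33 translocon, signal peptidase, signal recognition and oligosaccharyl transferase genes, 4 rose and 22 fell (66.7%, against 31.4% of all genes; median -0.40), with 20 falls held in suffixes 3 to 5 and 13 without the pairing. Spcs3, a signal peptidase subunit, fell by 1.02 ± 0.09, the translocon subunit genes Sec61b and Sec61g fell by 0.94 ± 0.08 and 0.79 ± 0.07, and the transferase subunit genes Dad1 and Tmem258 fell by 0.86 ± 0.07 and 0.83 ± 0.06. Of 31 vesicle traffic genes, 7 rose (22.6%) and 12 fell (38.7%, against 31.4% of all genes), or 1 and 4 without the pairing. The KDEL receptor genes Kdelr1 (-0.63 ± 0.07) and Kdelr2 (-0.79 ± 0.08), which return escaped ER proteins, and the coat and cargo genes Copz1 (-0.75 ± 0.08) and Tmed10 (-0.50 ± 0.06) fell. The COPII gene Sec24b rose (0.44 ± 0.06). Of 9 mRNAs known to be cut by IRE1, 4 were tested: Bloc1s1 (-0.55 ± 0.12) and Hgsnat (-0.37 ± 0.06) fell, Rpn1 rose (0.18 ± 0.06, adjusted p = 0.0184, but 0.145, 0.055 and 0.0527 without suffix 3, 4 or 5), and none was called without the pairing. Of 23 genes of ER calcium handling, 1 rose and 13 fell, or none and 6 without the pairing and 3 and 11 in suffixes 3 to 5 alone. Atp2a3, a gene of the pump that thapsigargin blocks, fell by 0.94 ± 0.08, and Tmbim6, which encodes an ER calcium leak protein, by 0.66 ± 0.06. The calcineurin gene Ppp3ca (-0.58 ± 0.08) and Rcan2, of the calcineurin regulators (-0.53 ± 0.08), fell as well, and the calcineurin inhibitor gene Rcan1 was the one that rose (0.59 ± 0.07).

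Signal-responsive genes differed between the pairs. Of 42 immediate early genes tested, 24 rose (57.1%) and 3 fell over all pairs (median 0.60), and 10 rises passed without the pairing. In suffixes 3 to 5 alone 22 rose, 21 of them as over all pairs, and 8 fell (median 0.25). Jun, an AP-1 subunit, had 295, 639, 643 and 719 CPM at 3 h and 69.8, 139, 146 and 132 CPM in vehicle (2.22 ± 0.07, adjusted p = 9.74e-10), without overlap. Myc (1.58 ± 0.10), the GTPase gene Gem (1.45 ± 0.08), Junb (1.36 ± 0.09) and Ier2 (1.35 ± 0.08) also rose in all 4 pairs. The list median was 0.74 in suffix 2 and 0.20, 0.30 and 0.29 in suffixes 3, 4 and 5 on the log2(CPM + 1) scale. The term that lets suffix 2 have its own 3 h change was called for 644 of all 12940 genes (4.98%), 452 higher and 192 lower in suffix 2 (237 and 518 with scaling by library totals, 289 and 200 with relative log expression factors), and for 15 of the 42 immediate early genes, 13 of them higher.

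The genes that set suffix 2 apart were chosen here after their values were seen. Nr4a1, a calcium- and cAMP-induced nuclear receptor, had 555, 19.8, 23.98 and 26.4 CPM at 3 h and 138, 26.5, 21.2 and 21.8 CPM in vehicle. The suffix 2 libraries were the highest in both groups, and the pair changes were 2.00 in suffix 2 and -0.40, 0.17 and 0.27 in the others (difference from the other pairs 2.02 ± 0.17, adjusted p = 1.71e-05). The AP-1 gene Fos had 80.0, 9.37, 12.5 and 11.1 CPM at 3 h and 25.5, 20.1, 14.9 and 13.5 CPM in vehicle. The zinc finger gene Egr1 had 122, 23.1, 22.0 and 20.5 CPM at 3 h and 64.8, 50.6, 51.7 and 38.1 CPM in vehicle, and the kinase gene Sik1 had 87.9, 5.69, 4.04 and 4.62 CPM at 3 h and 42.5, 10.6, 9.93 and 8.56 CPM in vehicle. All 3 went up in suffix 2 and fell in suffixes 3 to 5 alone, with log2 changes of -0.55 ± 0.15 for Fos (adjusted p = 0.00364), -1.07 ± 0.08 for Egr1 (adjusted p = 2.17e-08) and -1.001 ± 0.15 for Sik1 (adjusted p = 1.65e-05), and none was called over all pairs. Nr4a2, Nr4a3 and Crem followed the same order, with suffix 2 above the other pairs by 1.76, 1.61 and 1.58. Nr4a3 was called over all pairs (0.90 ± 0.28) and not without suffix 2 (0.21, adjusted p = 0.37). The mTORC1 inhibitor gene Ddit4 had a pair change of 1.68 in suffix 2 and of 0.28, -0.02 and 0.41 in the other pairs, and Pfkfb3, which drives glycolysis, changed by 0.21 in suffix 2 and by -1.66, -1.54 and -1.42 in the others. Across the 10884 genes with at least 5 CPM on average, the change in suffix 2 correlated with the mean change of the other pairs (r = 0.86, across genes of libraries that share no sample), and its spread was smaller (SD 0.417, against 0.541, 0.551 and 0.566 in suffixes 3, 4 and 5). The spread was also smallest in suffix 2 among the GFP-labelled pairs (SD 0.423, against 0.512, 0.514 and 0.499). Suffix 2 is also the pair whose Eif2a level goes against the label; the part of that in these differences was not tested.

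**Figure D3:**
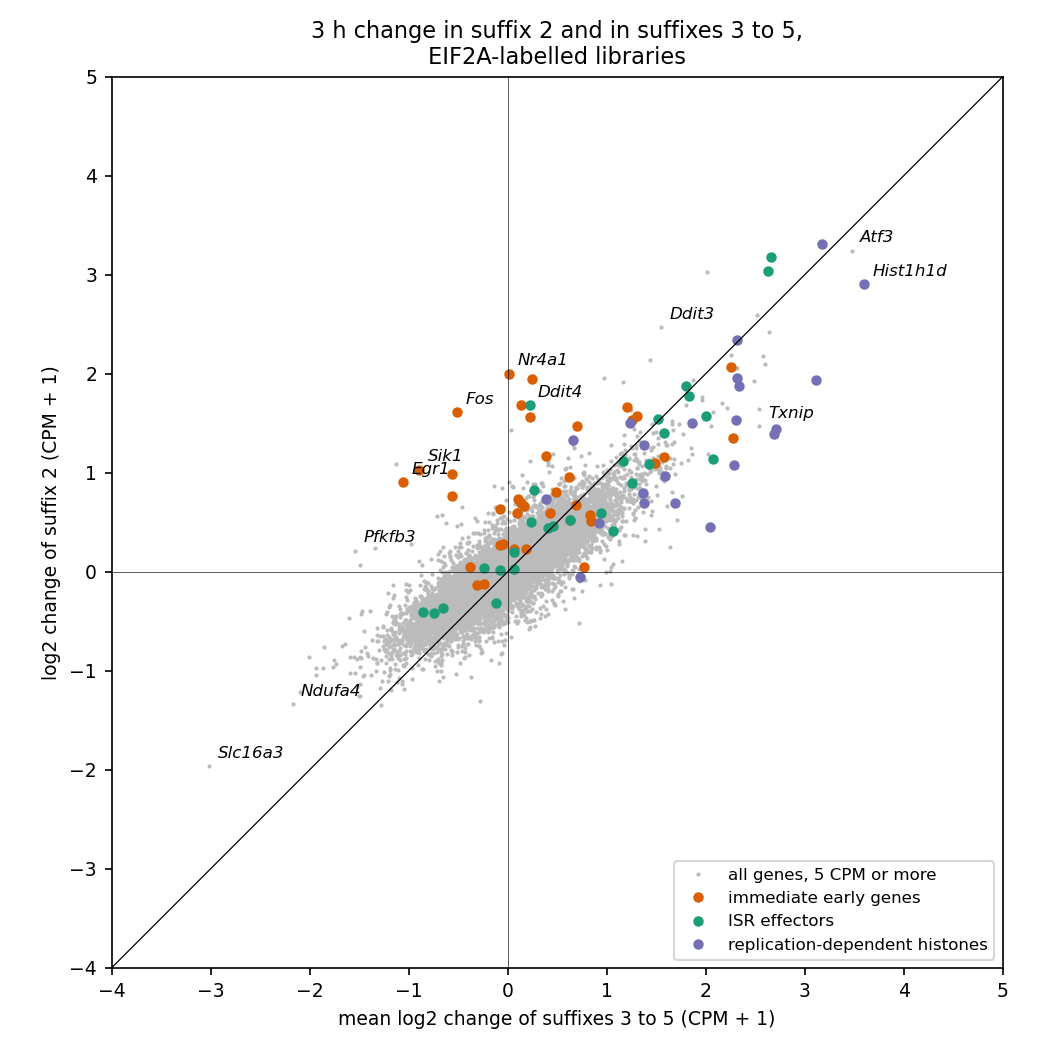
Log2 change at 3 h in suffix 2 (vertical) against the mean of suffixes 3 to 5 (horizontal) for 10884 genes, with the line of equal change; immediate early genes, ISR effectors and replication-dependent histones are coloured. Nr4a1, Fos, Sik1 and Egr1 lie above the line and Txnip and most histone genes below it.

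Many other stress-linked regulators rose, and a few fell. Of 14 NF-kB subunits, inhibitors and targets tested of 21, 13 rose and none fell (median 0.75), or 7 without the pairing. With no filter beyond 1 count in all, 14 of the 21 rose and none fell. Relb, a subunit of the non-canonical pathway, rose by 1.86 ± 0.13 and Tnfaip3 (A20), a feedback inhibitor, by 1.00 ± 0.14. The inhibitor gene Nfkbia rose by 0.86 ± 0.07, and the subunit genes Rela and Nfkb2 by 0.74 ± 0.06 and 0.70 ± 0.10. Of 18 circadian clock genes, 10 rose and 2 fell, or 5 and 1 without the pairing and 12 and 2 in suffixes 3 to 5 alone. Nfil3, a repressor of D-box genes, had 142, 214, 223 and 254 CPM at 3 h and 25.7, 35.7, 36.5 and 36.0 CPM in vehicle (2.62 ± 0.07), and Ciart (2.47 ± 0.16), Nr1d1 (REV-ERB alpha, 2.23 ± 0.14), Arntl (BMAL1, 1.47 ± 0.11) and Cry2 (0.90 ± 0.07) also rose. Of 8 genes of the Txnip and arrestin-domain group, 6 rose and 1 fell, or 3 and 1 without the pairing. Txnip, an inhibitor of thioredoxin and of glucose uptake that is tied to beta cell death (chromosome 3, 96557957 to 96561883, plus strand in mm10), had 94.3, 306, 308 and 289 CPM at 3 h and 33.4, 52.0, 51.9 and 48.4 CPM in vehicle (2.31 ± 0.18, adjusted p = 1.35e-05). Suffix 2 was the lowest library of both groups and changed less than the others (difference -1.06 ± 0.12, adjusted p = 0.000103). Its relatives Arrdc2 (1.00 ± 0.11), Arrdc3 (0.95 ± 0.10) and Arrdc4 (0.91 ± 0.11), and Mlxipl (ChREBP), the glucose-sensing activator of Txnip (0.39 ± 0.06), rose by less.

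Replication-dependent histone genes had the highest median change of the lists described. Of 65 in the list, 47 passed the filter on low counts, and 46 of these rose (97.9%) and none fell, with a median of 1.96. The same 46 held in suffixes 3 to 5 and 39 passed without the pairing. The filter can keep a gene through its 3 h libraries alone, which favours rises among the genes tested. With no filter beyond 1 count in all, 50 of 58 rose and none fell, with a median of 1.78. Hist1h1d, a linker histone, had 63.4, 113, 110 and 127 CPM at 3 h and 7.59, 7.89, 9.45 and 8.77 CPM in vehicle (3.57 ± 0.12, adjusted p = 9.74e-10), and Hist1h1b, another linker histone, rose by 3.67 ± 0.15. Hist1h1c, the most abundant of those named, had 511, 841, 874 and 1107 CPM at 3 h and 139, 161, 191 and 203 CPM in vehicle (2.23 ± 0.09). The core histone genes Hist1h2ah (3.17 ± 0.18), Hist1h2ac (3.12 ± 0.18), Hist1h3i (2.48 ± 0.19) and Hist3h2a (2.37 ± 0.07), and the linker genes Hist1h1e (3.16 ± 0.16) and Hist1h1a (2.82 ± 0.15), rose too. The median pair change was 0.69 in suffix 2 and 1.498, 1.54 and 1.54 in the others. These mRNAs normally end in a stem-loop without a poly(A) tail, the libraries were made from polyadenylated RNA, and many copies are near-identical, so their levels here count tailed transcripts and could be split between copies by the counting; the part of either in the rise was not tested.

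DNA replication genes rose by less, and mitotic genes were mixed. Of 28 replication genes, 19 rose and 2 fell (median 0.38), with all 19 rises held in suffixes 3 to 5, where 4 fell. The licensing genes Cdc6 (101, 97.4, 96.5 and 89.6 CPM at 3 h, against 44.2, 44.6, 39.0 and 39.2 CPM in vehicle; 1.20 ± 0.06) and Cdt1 (1.00 ± 0.08), the helicase genes Mcm7 (0.93 ± 0.07) and Mcm4 (0.69 ± 0.06), and Slbp, whose product binds the histone stem-loop (0.69 ± 0.06), were among them. Of 24 mitotic genes, 5 rose and 8 fell, or 3 and 4 without the pairing. Dlgap5 (0.89 ± 0.07) and Bub1 (0.66 ± 0.09) rose, and Cenpf (-0.70 ± 0.09), Ube2c (-0.59 ± 0.07) and Birc5 (-0.54 ± 0.07) fell.

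Genes that make ribosomes and genes that encode their proteins moved in opposite directions. Of 35 ribosome biogenesis and RNA polymerase I genes, 28 rose and 4 fell (median 0.35), 18 and 1 without the pairing. Taf1a (1.54 ± 0.08) and Taf1d (1.35 ± 0.08) of the polymerase I factor SL1, the box C/D snoRNP genes Nop56 (1.13 ± 0.09) and Nop58 (0.85 ± 0.06), and Gnl3 (nucleostemin, 0.99 ± 0.07) rose. Of 13 snoRNA host genes tested, 7 rose (53.8%) and 5 fell (38.5%), against 31.2% and 31.4% of all genes. Without the pairing 7 rose and 3 fell. The 5 that fell, 1 of them by at least 2-fold, are not among those named. Snhg1 had 183, 252, 264 and 199 CPM at 3 h and 43.3, 52.1, 47.2 and 41.0 CPM in vehicle (2.28 ± 0.07), and Snhg12 (2.29 ± 0.07), Snhg17 (2.12 ± 0.11), Snhg5 (1.49 ± 0.07) and Gas5 (0.83 ± 0.07) rose with it. Spliced host transcripts of this kind are known targets of translation-coupled decay, and its part in these changes was not tested. Of 78 cytosolic ribosomal protein genes, none rose and 69 fell (88.5%, against 31.4% of all genes; median -0.39), all 69 in suffixes 3 to 5 too and 30 without the pairing. In suffixes 3 to 5 alone, 2 rose and 71 fell. The falls were small, with Rpl41 the largest at 1.01 ± 0.08, Rpl39 at 0.80 ± 0.07, Rps29 at 0.70 ± 0.06, Rpl11 at 0.67 ± 0.06 and Rpl38 at 0.64 ± 0.06. Other translation factors were mixed, with 13 of 48 higher and 11 lower, or 7 and 4 without the pairing: Eif4ebp1, an ATF4 target that restrains cap-dependent initiation (1.16 ± 0.06), and the eIF3 subunit genes Eif3d (0.83 ± 0.07), Eif3c (0.79 ± 0.07) and Eif3a (0.75 ± 0.06) rose, and Eif5a fell by 0.59 ± 0.07.

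Oxidative phosphorylation genes fell. Of 75 nuclear genes tested, 60 fell (80.0%) and 9 rose (median -0.43), and 59 of the falls held in suffixes 3 to 5. Without the pairing, 45 falls and 4 rises passed. Ndufa4, an accessory subunit of cytochrome oxidase (chromosome 6, 11900292 to 11907497, minus strand in mm10), had 111, 66.9, 67.4 and 66.5 CPM at 3 h and 283, 324, 299 and 293 CPM in vehicle (-1.97 ± 0.13, adjusted p = 8.08e-07). The groups lay far apart, and suffix 2 fell less than the others (difference 0.85, adjusted p = 0.000394). Uqcrh of complex III had 110, 89.3, 91.0 and 97.5 CPM at 3 h and 224, 276, 275 and 292 CPM in vehicle (-1.46 ± 0.09), and Atp5k (-1.16 ± 0.08), Cox6b1 (-1.09 ± 0.08), Uqcr11 (-1.06 ± 0.07) and Sdhd (-1.02 ± 0.08) followed. Many of these genes and of the ribosomal protein genes are short. With a trend in transcript length removed, the medians were -0.39 for oxidative phosphorylation and -0.35 for ribosomal proteins. The median of all genes was then -0.04, against -0.01 with no trend removed.

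Glycolytic and hypoxia-inducible genes fell as well. Of 30 tested, 4 rose and 20 fell (66.7%; median -0.46), with 10 falls without the pairing. Slc16a3, the lactate exporter MCT4, had 75.2, 16.6, 15.2 and 22.9 CPM at 3 h and 297, 137, 151 and 169 CPM in vehicle (-2.76 ± 0.23, adjusted p = 0.000109), the largest fall of any named gene. Suffix 2 was the highest library of both groups. Ankrd37 (-1.82 ± 0.14), the glycolytic genes Pgam1 (-1.27 ± 0.11) and Tpi1 (-0.89 ± 0.08), the prolyl hydroxylase gene Egln1 (-1.05 ± 0.07) and Pdk1, which restrains pyruvate entry into mitochondria (-0.73 ± 0.06), fell with it. The term for suffix 2 was called for 11 of the 30 genes, all with a higher 3 h change in suffix 2 than in the other pairs. Over all genes it was called for 644 of 12940 (4.98%), 452 of them higher. That split over all genes turned the other way with scaling by library totals, as given above. Other genes among the 12 largest falls were S100a11 (-1.98 ± 0.16), Ttc28 (-1.73 ± 0.23), the actin monomer binder gene Tmsb4x (-1.70 ± 0.16), the tubulin gene Tuba1c (-1.67 ± 0.11), Trappc1 of a Golgi tethering complex (-1.66 ± 0.14), the mitochondrial adenylate kinase gene Ak4 (-1.63 ± 0.21) and Skp1a of an SCF ubiquitin ligase (-1.54 ± 0.15).

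Antioxidant genes mostly fell, and autophagy genes fell more often than they rose, except under scaling by library totals, where 11 fell and 11 rose. Of 26 NRF2 targets, 18 fell and 4 rose (median -0.49), or 12 and 2 without the pairing and 20 and 4 in suffixes 3 to 5 alone. The glutathione transferase gene Gstm1 (-1.18 ± 0.10), the ferritin light chain gene Ftl1 (-1.09 ± 0.09), Srxn1 (-0.73 ± 0.07) and Txn1, the thioredoxin that Txnip binds (-0.73 ± 0.07), fell. Slc7a11, an ATF4 target too, was the largest of the 4 rises. Of 30 autophagy and lysosome genes, 14 fell and 7 rose, 9 and 3 without the pairing, with Rragd (-1.02 ± 0.09) and Flcn (-0.93 ± 0.10) of amino acid signalling at the lysosome and the ATG8 family genes Gabarap (-0.80 ± 0.07), Map1lc3b (-0.74 ± 0.09) and Gabarapl2 (-0.72 ± 0.06) among the falls. Of 21 cytosolic heat shock genes, 8 fell (38.1%, against 31.4% of all genes) and 4 rose (19.0%). Without the pairing 2 fell and 2 rose, and in suffixes 3 to 5 alone 10 and 4. Hspa1a (-0.80 ± 0.20), Hsp90aa1 (-0.39 ± 0.10) and Fkbp4 (-0.34 ± 0.06) were lower, and Hspa4 and Hsf1 higher (0.46 ± 0.06 and 0.46 ± 0.07). Of 30 sterol and fatty acid synthesis genes, 13 rose and 5 fell, or 4 and 2 without the pairing and 11 and 7 in suffixes 3 to 5 alone, and the rises included Lss (0.59 ± 0.07), Cyp51 (0.58 ± 0.08), Fdft1 (0.57 ± 0.06) and Sqle (0.48 ± 0.07) of the sterol branch. Acly, which supplies acetyl-CoA, fell by 0.62 ± 0.08.

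Beta cell hormone and granule genes fell. Of 31 tested, 24 fell (77.4%) and 4 rose (median -0.38), and all 28 calls held in suffixes 3 to 5, whereas 9 falls and no rise passed without the pairing. Ins2, the main mouse insulin gene, had 31179, 27974, 28030 and 33830 CPM at 3 h and 51369, 58410, 63698 and 58784 CPM in vehicle, a fall to 0.521 times the vehicle level (-0.94 ± 0.09, adjusted p = 3.8e-06). Ins1 had 4366, 11605, 11664 and 14731 CPM at 3 h and 7263, 21283, 23522 and 23631 CPM in vehicle (-0.83 ± 0.08). The Ins2 groups did not overlap. Those of Ins1 did, because both suffix 2 libraries were far below the others, and Ins1 was not called without the pairing. Per kilobase of exon, Ins2 stood at 23059 CPM at 3 h and 44257 CPM in vehicle and Ins1 at 9973 and 17820 CPM. Iapp, the amyloid peptide co-secreted with insulin, fell by 0.57 ± 0.07. The neuropeptide gene Npy (-0.93 ± 0.08), Rab3d of granule docking (-1.13 ± 0.08) and Syt7, a calcium sensor of exocytosis (-1.04 ± 0.08), fell too.

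Beta cell transcription factors did not move as a block. Of 21 tested, 7 rose and 5 fell (median 0.08), or 2 and 3 without the pairing, and 5 of the rises and all 5 falls held in suffixes 3 to 5. Nkx2-2 (-0.65 ± 0.09) and Nkx6-1 (-0.56 ± 0.08), which keep beta cell identity, fell, and Pax4 (1.12 ± 0.12), Insm1 (0.84 ± 0.07) and Myt1 (0.42 ± 0.07), known for their part in endocrine differentiation, rose. Pdx1 changed by -0.02 ± 0.08 (adjusted p = 0.817). Mafa, an activator of insulin transcription, had 337, 99.8, 113 and 206 CPM at 3 h and 284, 158, 216 and 266 CPM in vehicle (-0.42 ± 0.17, adjusted p = 0.0638). It went up in suffix 2 and down in the other pairs, and fell by 0.63 ± 0.08 in suffixes 3 to 5 alone (adjusted p = 3.51e-06). Of 18 glucose sensing and signalling genes, 9 fell and 4 rose, or 3 and none without the pairing. In suffixes 3 to 5 alone, 7 fell and 7 rose. G6pc2, the islet glucose-6-phosphatase, had 1957, 1447, 1376 and 1299 CPM at 3 h and 3741, 4650, 4345 and 4700 CPM in vehicle (-1.53 ± 0.12), and the glucose transporter gene Slc2a2 (-1.001 ± 0.11), the membrane protein gene Tmem27 (-1.57 ± 0.13) and Insr (-0.34 ± 0.07) fell, while Irs2 rose (0.70 ± 0.12). Of 11 genes normally kept low in beta cells, 4 fell and 1 rose, or 6 and none in suffixes 3 to 5 alone, and none was called without the pairing. Ldha fell by 1.02 ± 0.10, Ndrg2 by 0.92 ± 0.26, Tst by 0.40 ± 0.11 and the lactate carrier gene Slc16a1 by 0.38 ± 0.11, while Cxcl12 rose by 0.57 ± 0.22 but was not called when any of the 4 pairs was left out (adjusted p between 0.0562 and 0.314).

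Cell death genes rose and fell in shares close to those of all genes. Of 24 BCL2 family and apoptosis genes tested, 7 rose (29.2%) and 8 fell (33.3%), or 4 and 1 without the pairing and 9 and 8 in suffixes 3 to 5 alone. The pro-apoptotic BH3-only genes Bbc3 (PUMA) and Hrk rose: Bbc3 had 38.0, 48.1, 51.0 and 60.7 CPM at 3 h and 12.3, 15.1, 19.4 and 19.5 CPM in vehicle (1.58 ± 0.08), and Hrk had few counts, with means of 3.96 CPM at 3 h and 0.958 CPM in vehicle (2.04 ± 0.22). Bnip3l (-0.81 ± 0.08), Bnip3 (-0.80 ± 0.09) and Bok (-0.79 ± 0.09) fell. Of 17 p53 targets, 7 rose (41.2%) and 6 fell (35.3%), against 31.2% and 31.4% of all genes, or 5 and 3 without the pairing. Trp53 itself (0.64 ± 0.06) and the nuclease gene Aen (0.82 ± 0.08) rose and Sesn1 (-1.05 ± 0.10) fell. Of 28 interferon response genes, 11 rose (39.3%) and 6 fell (21.4%), against the same shares of all genes, or 5 and 3 without the pairing. The rises included Mx2 (1.75 ± 0.16), Usp18 (0.70 ± 0.07), Mx1 (0.62 ± 0.07) and Irf1 (0.54 ± 0.07). In suffixes 3 to 5 alone, 10 interferon response genes rose and 8 fell.

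**Figure D4:**
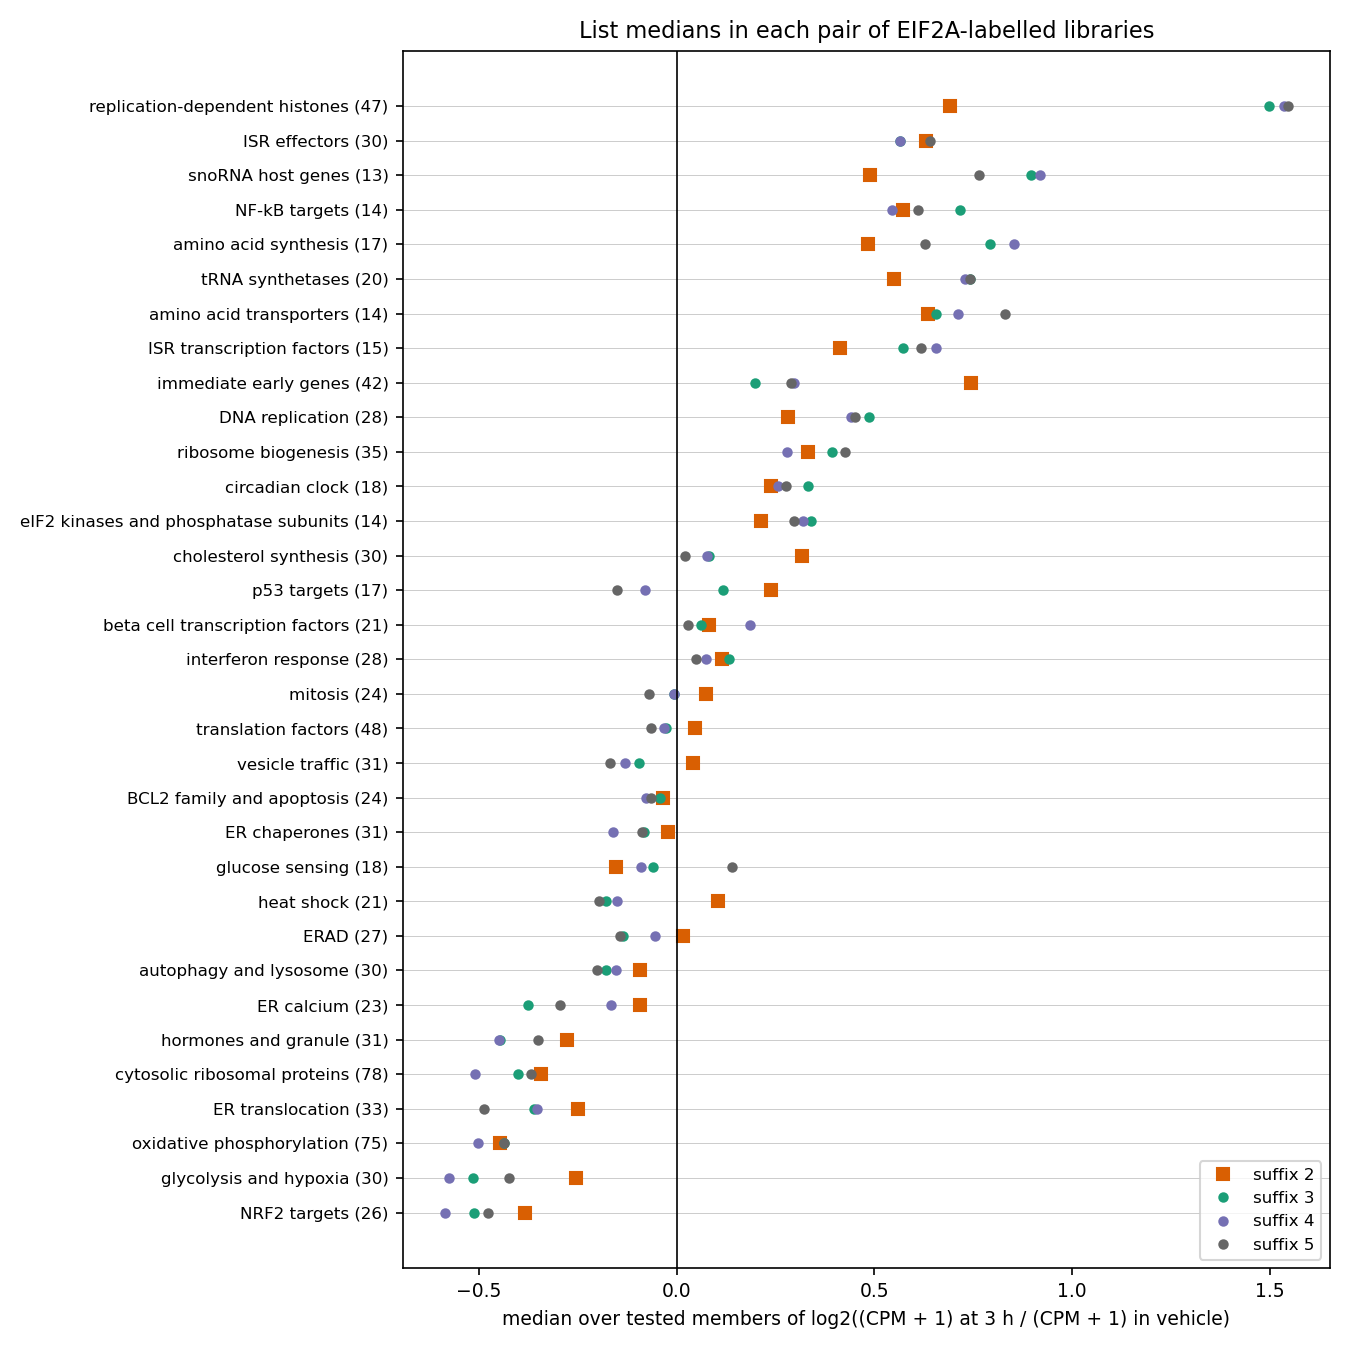
Median log2((CPM + 1) at 3 h / (CPM + 1) in vehicle) over the tested members of each gene list in each pair of EIF2A-labelled libraries; squares mark suffix 2. Histone medians are 0.69 in suffix 2 and 1.498 to 1.54 in the other pairs, and immediate early medians are 0.74 in suffix 2 and 0.20 to 0.30 in the others.

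Among markers of other cell types, those of alpha and duct cells had the highest sums. The summed level of 9 alpha cell markers was 1025 to 2406 CPM at 3 h and 1822 to 3217 CPM in vehicle. Ttr (-1.02 ± 0.10), Gcg (glucagon, -0.65 ± 0.07) and Slc38a5 (-0.53 ± 0.07) fell, and Gc (0.77 ± 0.07) and Irx1 (0.27 ± 0.09) rose, although Irx1 was not called without suffix 3 or 5 (adjusted p = 0.0619 and 0.0988). The 8 duct markers summed to 441 to 865 CPM at 3 h and 424 to 922 CPM in vehicle, where Muc1 (1.33 ± 0.23) rose and Car2 (-0.61 ± 0.08) and Spp1 (-0.21 ± 0.07) fell, although Spp1 was not called without suffix 4 or 5 (adjusted p = 0.109 and 0.117). The 9 macrophage markers summed to 9.66 to 55.8 CPM at 3 h and 28.8 to 98.4 CPM in vehicle, and C1qa fell (-1.34 ± 0.13). The 6 delta, PP and epsilon markers summed to 2.40 to 10.7 CPM at 3 h and 2.96 to 14.3 CPM in vehicle. The 9 mesenchymal markers summed to 3.06 to 4.50 CPM at 3 h and 2.77 to 27.2 CPM in vehicle, and the 7 endothelial markers to 7.13 to 13.4 CPM at 3 h and 6.51 to 12.8 CPM in vehicle. Rbp4, Ghsr, Col1a1, Col1a2 and Plvap, of the delta, mesenchymal and endothelial lists, were not called over all pairs, and Col1a2 fell in suffixes 3 to 5 alone (-0.79). Without the pairing, Gcg, Slc38a5, Irx1, Car2, Spp1 and C1qa were not called (adjusted p = 0.60, 0.272, 0.194, 0.0663, 0.941 and 0.19). Whether any such cells were present, or had a part in other results, was not tested.

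The same treatment in GFP-labelled cells gave largely the same calls. Of 13368 genes tested there, 4473 rose (33.5%) and 4693 fell (35.1%), or 5782 and 3312 with scaling by library totals. Of the genes that rose in EIF2A-labelled cells, 3637 also rose in GFP-labelled cells (90.2% of the EIF2A rises and 81.3% of the GFP rises), and of those that fell, 3719 also fell (91.6% and 79.2%). Calls the other way numbered 3 and 1. The 2 comparisons share no library. The test of the difference between the constructs' 3 h responses, over all pairs, called 4 of 13646 genes (0.0293%), all with a lower change in EIF2A-labelled cells, while 1028 had an unadjusted p under 0.05. Flrt3, a leucine-rich membrane protein, changed by 0.08 ± 0.12 in EIF2A-labelled cells and by 1.29 in GFP-labelled cells (difference -1.22 ± 0.18, adjusted p = 0.0101). It had 9.42, 19.5, 20.4 and 16.8 CPM at 3 h and 6.12, 18.7, 19.8 and 20.4 CPM in vehicle in EIF2A-labelled cells, against 17.9, 18.5, 14.9 and 15.9 CPM at 3 h and 9.42, 5.97, 6.09 and 6.28 CPM in vehicle in GFP-labelled cells. The other calls, Csf1r, Ctss and Sparc, too low to be tested among the EIF2A-labelled libraries alone, had their highest count of all 16 libraries in the GFP-labelled library of suffix 5 at 3 h, with 132, 62 and 48 counts. Csf1r and Ctss mark macrophages.

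Without suffix 2, whose Eif2a level goes against both labels, the difference between the constructs was called for 1038 of 13615 genes (7.62%), 402 with a higher and 636 with a lower change in EIF2A-labelled cells, and for 330 without the pairing. Of the 15 ISR transcription factors 1 was called higher and 5 lower, and of the 30 effectors 4 higher and 9 lower. The rises of several leading ISR genes were smaller in EIF2A-labelled cells: Ddit3 changed by 1.57 in EIF2A-labelled cells and 2.15 in GFP-labelled cells (difference -0.59 ± 0.08, adjusted p = 0.000309), Chac1 by 2.67 and 3.28 (-0.63 ± 0.07), Trib3 by 2.70 and 3.33 (-0.65 ± 0.08), and Atf4 by 0.47 and 0.89 (-0.43 ± 0.06). The level of Ddit3 itself was not lower in EIF2A-labelled cells. In suffixes 3 to 5 it had 334 to 397 CPM at 3 h and 116 to 132 CPM in vehicle there. In GFP-labelled cells it had 242 to 260 CPM at 3 h and 54.9 to 57.8 CPM in vehicle. For Atf3 a smaller rise was not called (3.57 and 3.66, difference -0.11 ± 0.10, adjusted p = 0.569). Hspa5 changed by 0.03 in EIF2A-labelled cells and by 0.35 in GFP-labelled cells (-0.34 ± 0.06, adjusted p = 0.00189), and 8 of 31 ER chaperone genes and 13 of 30 sterol and fatty acid genes were called lower and none higher. Signal-responsive genes chosen above differed too. They were chosen after their low change in EIF2A-labelled suffixes 3 to 5, beside suffix 2, was seen. The test here uses those same values, which favours a lower change in EIF2A-labelled cells, so it is no separate support. Sik1 changed by -1.001 in EIF2A-labelled cells and by 1.15 in GFP-labelled cells (-2.17 ± 0.15, adjusted p = 3.61e-07) and Nr4a1 by 0.02 and 1.72 (-1.72 ± 0.12, adjusted p = 3.81e-07). Of the 42 immediate early genes, 12 were called lower and 6 higher. The IRE1 substrate Bloc1s1 differed the other way, with changes of -0.36 in EIF2A-labelled cells and -1.52 in GFP-labelled cells (1.13 ± 0.12, adjusted p = 1.22e-05), as did Slc3a2 (2.03 and 1.62, difference 0.39 ± 0.06, adjusted p = 0.00074). In suffixes 3 to 5, reads outside genes made up 13.3% to 14.9% at 3 h and 17.2% to 17.9% in vehicle in EIF2A-labelled libraries. In GFP-labelled libraries they made up 11.1% to 12.5% and 12.4% to 12.99%, so the constructs did not overlap at either time. Counted reads in vehicle came to 10.5 to 14.8 M in EIF2A-labelled and 18.4 to 22.2 M in GFP-labelled libraries of these suffixes. The part of either in these differences was not tested.

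**Figure D5:**
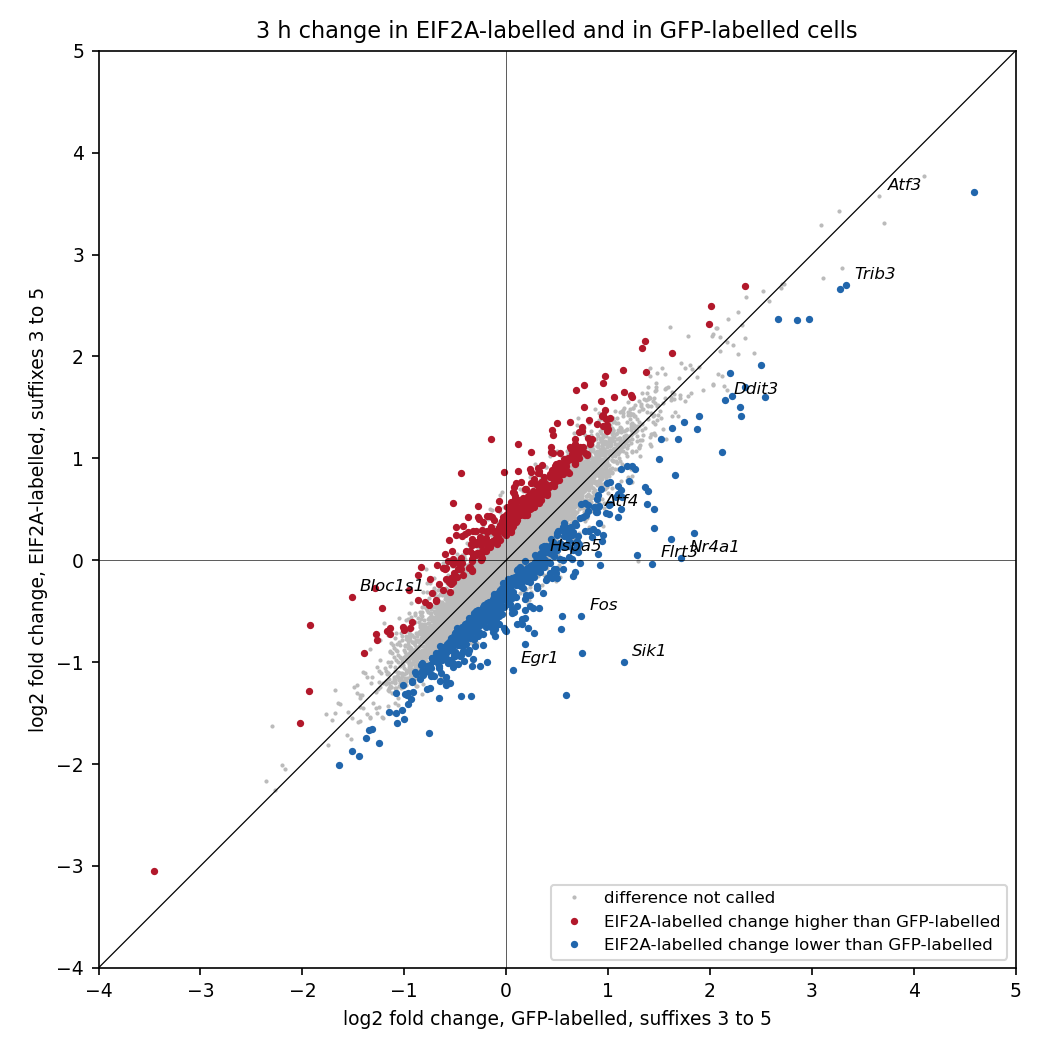
Log2 fold change at 3 h in EIF2A-labelled cells (vertical) and GFP-labelled cells (horizontal), suffixes 3 to 5, for 10884 genes, with the line of equal change; colours mark genes called in the test of the difference. Sik1, Nr4a1, Fos and Flrt3 lie below the line and Bloc1s1 above it, while Atf3 lies close to it.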

How the data were processed

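Polyadenylated RNA of MIN6 cells was sequenced from stranded libraries, per the labels' protocols, and bcl2fastq, STAR and mm10 are named in the submitters' processing notes, without versions. The authors' deposited table holds unnormalised whole counts for 24421 gene symbols in 24 libraries. No source used here gives the counting program, annotation or strand setting, so how reads were split between near-identical or overlapping genes is unknown. The 2 lines that name no gene (11.1% to 17.9% of reads outside genes and 0.518% to 0.574% ambiguous in the EIF2A-labelled libraries) were left out of library sizes and tests.

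The members and the gene lists were chosen with earlier results of these data known. Counts were filtered with filterByExpr (minimum count 10, minimum total 15), scaled by trimmed means and tested with edgeR 4.0.16 (glmQLFit, glmQLFTest; R 4.3.3), with the suffix as a block and 3 residual degrees of freedom over 8 libraries; adjusted p-values are Benjamini-Hochberg over all genes tested, with a threshold of 0.05. Standard errors are the log2 fold change over the square root of the F statistic. The same-suffix libraries deviated together from their group means (correlation 0.87, 0.56, 0.53 and 0.59 in suffixes 2 to 5), so the suffix was taken to pair them. The highest correlation with another suffix was -0.59, 0.47, 0.55 and 0.50, above the same-suffix value in suffix 4, and among suffixes 3 to 5 alone the same-suffix correlations fell to 0.28, -0.01 and 0.28, against -0.04, 0.21 and 0.03 with another suffix. The difference between constructs was an interaction term over 16 libraries, and the term for suffix 2 set 1 pair against 3. CPM are counts per 1000000 on trimmed-mean library sizes, and pair changes are log2 ratios of CPM + 1. The 12 highest and 12 lowest changes with at least 5 CPM, no overlap between groups and a call in suffixes 3 to 5, up to 5 called members of each list by smallest p (the 2 most abundant where none was called), calls of the interaction with at least 5 CPM and 15 fixed genes are named; genes outside this rule are marked as chosen after their values were seen. The acinar marker list and 1 gene that the rule names are not reported here. Scripts were tested on simulated data with 200 changed genes, far fewer than were called here, so that test does not check the scaling. No molecular identifiers were used, so depth bounds counting error only. Alternatives were the fit without the block, the 1 h libraries or all 24 libraries in the fit, library totals, relative log expression factors, DESeq2 1.42.0, no filter, a length trend removed, and each pair left out.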

Additional observations from a re-analysis of the deposited data

Results flagged for a closer look

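The 3 h change of 216 named genes was examined pair by pair on the log2(CPM + 1) scale, and in 35 of them 1 of the 4 pairs lay apart from the other 3 by more than Dixon's 95% limit for 4 samples. The 216 include genes chosen after their suffix 2 values were seen, and Crem, Egr1, Nr4a3, Pfkfb3 and Sik1 of these are among the 35. All genes also share the same 4 pairs. The count is therefore a description and cannot be set against the 1 in 20 that chance gives for independent genes. The pair was suffix 2 in 33 of the 35, suffix 3 in 1 and suffix 4 in 1. Suffix 2 is the pair whose Eif2a level goes against its label, and what sets it apart was not tested.

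The decrease was smaller in suffix 2 than in the other pairs for Acly (-0.28, others -0.74 to -0.73), Ak4 (-0.76, others -1.93 to -1.78), Ankrd37 (-1.04, others -1.99 to -1.90), Bnip3 (-0.46, others -0.95 to -0.89), Edem1 (-0.58, others -0.85), Eif2ak2 (-0.45, others -1.02 to -0.94), Gabarap (-0.60, others -0.87 to -0.85) and Gstm1 (-0.70, others -1.36 to -1.25). The same held for Ndufa4 (-1.33, others -2.26 to -2.12), Nkx2-2 (-0.25, others -0.80 to -0.76), Pgam1 (-0.76, others -1.47 to -1.38), Rab3d (-0.80, others -1.28 to -1.20), Trappc1 (-0.97, others -1.90 to -1.84), Ttc28 (-0.86, others -2.03 to -1.97) and Uqcrh (-1.02, others -1.62 to -1.57). The increase was smaller in suffix 2 than in the other pairs for Aen (0.60, others 0.86 to 0.87), Cars (0.89, others 1.24 to 1.29), Eif3c (0.52, others 0.86 to 0.89), Hist1h1e (1.94, others 3.04 to 3.16), Hist1h2ac (1.45, others 2.63 to 2.85), Pax4 (0.64, others 1.16 to 1.18), Relb (1.19, others 1.93 to 2.08) and Slc3a2 (1.58, others 1.98 to 2.05). The same held for Txnip (1.47, others 2.53 to 2.55) and Vimp (0.24, others 0.47 to 0.48). Suffix 2 had a higher change than the other pairs, in some genes of the opposite sign, for Ciart (3.03, others 1.97 to 2.11), Crem (0.99, others -0.73 to -0.47), Egr1 (0.91, others -1.20 to -0.86), Hsp90aa1 (0.086, others -0.57 to -0.51), Nr4a3 (1.69, others -0.05 to 0.24), Pfkfb3 (0.21, others -1.66 to -1.42), Sik1 (1.03, others -1.12 to -0.77) and Slc1a4 (1.63, others 1.23 to 1.26). For Hist1h1b the pair apart was suffix 4, at 2.72, with the other pairs at 3.31 to 3.42. For Irs2 the pair apart was suffix 3, at 0.46, with the other pairs at 0.65 to 0.67.

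Among 33 gene lists, the median change of the tRNA synthetases was 0.55 in suffix 2 and 0.73 to 0.74 in the other pairs, that of the replication-dependent histones was 0.69 in suffix 2 and 1.498 to 1.54 in the others, and that of the heat shock genes was 0.10 in suffix 2 and -0.20 to -0.15 in the others. The median of the oxidative phosphorylation genes was -0.50 in suffix 4 and -0.45 to -0.44 in the other pairs.

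The 3 h change differed between EIF2A-labelled and GFP-labelled cells, by the test of the difference over all pairs, for 4 genes: Flrt3 (-1.22), Csf1r (-5.55), Ctss (-5.88) and Sparc (-5.41). In the last 3 genes the highest count of all 16 libraries was in 1 GFP-labelled library at 3 h, suffix 5.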

How the results depend on the processing

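Without the pairing by suffix (no replicate block) the 3 h comparison called 3810 genes (2090 higher, 1720 lower) in EIF2A-labelled cells and 5626 in GFP-labelled cells, against 8092 and 9166 with it, and in a fit of all 24 libraries without the block 4985 and 4543; leaving each pair out gave 6799 to 8532 in EIF2A-labelled and 8114 to 9586 in GFP-labelled cells. The difference between the constructs was called for 0 genes without the pairing (96 at an unadjusted p under 0.05), 17 with no filter, 0 to 1038 with a pair left out (1038 without suffix 2, 7 without suffix 3, 1 without suffix 4, 0 without suffix 5) and 330 without suffix 2 and without the pairing, an alternative chosen after seeing the data. The term for suffix 2 was called for 256 genes by DESeq2, 1106 with no filter, and 204 to 2153 with a pair left out (204 without suffix 3, 2153 without suffix 5). Fos stood at -0.55 to 0.53 with a pair left out, and at -0.55 without suffix 2 with and without the pairing, against 0.16 over all pairs. Of 216 named genes, 37 lost their call without the pairing: Ak4, Arrdc4, Bloc1s1, Bnip3, Bok, C1qa, Car2, Cxcl12, Eif2a, Gcg, Hgsnat, Hsp90aa1, Hspa13, Ins1, Insm1, Insr, Irs2, Irx1, Ldha, Mlxipl, Mx1, Ndrg2, Nr4a3, Ppp1r15b, Rcan1, Rpn1, Sec24b, Slc16a1, Slc38a5, Spp1, Sqle, Tmed10, Tst, Txndc11, Txndc5, Usp18 and Vimp. Scaling by library totals lost Insr, Slc16a1, Spp1 and Tst and added Hspa5, Nr4a2 and Plvap, relative log expression factors changed no call of a named gene, and DESeq2 lost Cxcl12 and Irx1. The causes were not tested. Only 4 pairs, 1 of them against its label, limit every interval given.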
